A study of Mus musculus and Homo sapiens with 12 samples.

Results

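The long non-coding RNA genes Snhg1, Snhg3, Snhg5, Snhg6, Snhg8, Snhg12, Gas5 and Zfas1 carry small nucleolar RNAs (snoRNAs) in their introns. Their transcripts are grouped here under the 5'TOP class, whose sequence feature was found at only some of the annotated starts below. The genes were picked by name and found by Ensembl identifier in every gene count table, with the human genes of the same symbols. These were 8 of 54446 mouse genes and 8 of 58721 human genes.

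Chromatin-associated RNA of mouse embryonic stem cells (mESC) and of K562, an established human erythroleukaemia line, both wild type, was fragmented and immunoprecipitated with an antibody against 5-methylcytosine (m5C). Each line gave 3 IP libraries and 3 Input libraries, which were not immunoprecipitated. That makes 12 libraries in 4 groups named from the library titles, and the antibody field of the labels did not follow those titles. No group carried a mutation or a drug contrast. The mESC, labelled as from embryos, grew with LIF, CHIR99021 and PD0325901 and were passaged off feeder cells, and the labels list puromycin in the medium of wild-type K562 where the study's methods list it for transduced lines.

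In background terms, a snoRNA host gene is transcribed as a whole, its introns are processed into snoRNAs, and the snoRNAs guide 2'-O-methylation (box C/D) or pseudouridylation (box H/ACA) of ribosomal and other RNAs. The spliced host RNA often has little coding potential and is then removed in the cytoplasm by nonsense-mediated decay. A 5'TOP transcript starts with a C followed by a run of pyrimidines, the feature through which mTOR signalling and LARP1 act on ribosomal protein mRNAs, and Gas5 is the textbook host gene of this class.

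The start sequences show which annotated starts carry that feature. Windows of 50 bases hold 20 bases before the annotated start and 30 bases from it on. Capitals mark the longest run of C and T that begins with a C at most 10 bases from the start. Mouse windows came from RefSeq (GRCm38.p6), with Gas5 given by the second of its RefSeq starts. Human windows came from the canonical GENCODE 44 start on hg38. The mouse windows of Gas5 (chr1:161035146-161035195, plus strand), Snhg12 (chr4:132308658-132308707, plus strand) and Snhg8 (chr3:123508307-123508356, minus strand) are shown for their long runs, Snhg1 (chr19:8723467-8723516, plus strand) for a short one and Zfas1 (chr2:167062914-167062963, plus strand) for an annotated start without a run. The human windows of GAS5 (chr1:173867960-173868009, minus strand) and ZFAS1 (chr20:49278622-49278671, plus strand) stand beside them.
Gas5: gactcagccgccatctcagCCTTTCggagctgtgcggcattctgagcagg
Snhg12: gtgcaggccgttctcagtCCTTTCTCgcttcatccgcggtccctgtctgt
Snhg8: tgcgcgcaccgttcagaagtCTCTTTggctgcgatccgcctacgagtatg
Snhg1: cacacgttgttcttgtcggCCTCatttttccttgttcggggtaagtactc
Zfas1: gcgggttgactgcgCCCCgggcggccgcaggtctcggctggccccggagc
GAS5: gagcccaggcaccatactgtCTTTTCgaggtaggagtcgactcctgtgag
ZFAS1: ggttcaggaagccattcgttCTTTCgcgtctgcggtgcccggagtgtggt

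In mouse, 7 of the 8 host genes had a RefSeq window, and Gas5 had 2. Of these 7, 3 (Gas5, Snhg8 and Snhg12) had a run of at least 5 pyrimidines from the C nearest to the start. Gas5 had it in its second window only, with a run of 1 in its first, so by window it was 3 of 8. A run of at least 5 was found in 6.75% of 32851 mouse promoter windows, read on the strand of the gene. In human, 3 of 7 host genes with a window (GAS5, SNHG12 and ZFAS1) had such a run, beside 6.19% of 60159 windows. Zfas1 had none at its annotated mouse start and ZFAS1 had one at its human start. These are counts of letters at annotated starts, which may lie a few bases from the starts in use, and SNHG6 and Snhg6 were not examined.

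In GENCODE M21 (GRCm38) the mouse genes are short, from 853 bases for Snhg8 (chr3:123507552-123508404, minus strand) to 5673 bases for Snhg3 (chr4:132348014-132353686, minus strand). Gas5 lies at chr1:161034422-161038539 on the plus strand and holds 10 snoRNA records, 4 of them named as box C/D. Snhg1 (chr19:8723475-8726443, plus strand) holds 8 records, and Snhg12 (chr4:132308623-132311024, plus strand) holds 5, of which 4 are box H/ACA. Records exceed distinct snoRNAs, since Snord80 in Gas5 and Snora16a in Snhg12 recur at almost the same position under another identifier. Zfas1 (chr2:167062934-167065862, plus strand) holds 3, Snhg3 and Snhg5 (chr9:88521050-88522929, minus strand) hold 2 each, and Snhg6 (chr1:9941959-9944118, minus strand) and Snhg8 hold 1 each. In GENCODE 44 (hg38) GAS5 lies at chr1:173858559-173868882 (minus strand), SNHG1 at chr11:62851978-62855953 (minus strand), SNHG12 at chr1:28578538-28583132 (minus strand), ZFAS1 at chr20:49278178-49299600 (plus strand), SNHG5 at chr6:85650491-85678932 (minus strand) and SNHG8 at chr4:118278703-118285316 (plus strand). SNHG1 holds 7 snoRNA records, SNHG12 holds 5 (SNORA16A recurs among them), ZFAS1 holds 3, and none was matched inside GAS5. Only counted identifiers that are also in this release could be matched, so human numbers may fall short. The missing match does not show that GAS5 holds no snoRNA. The GC content of the mouse spans ran from 40.7% (Snhg1) to 47.5% (Snhg12).

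**Figure D1:**
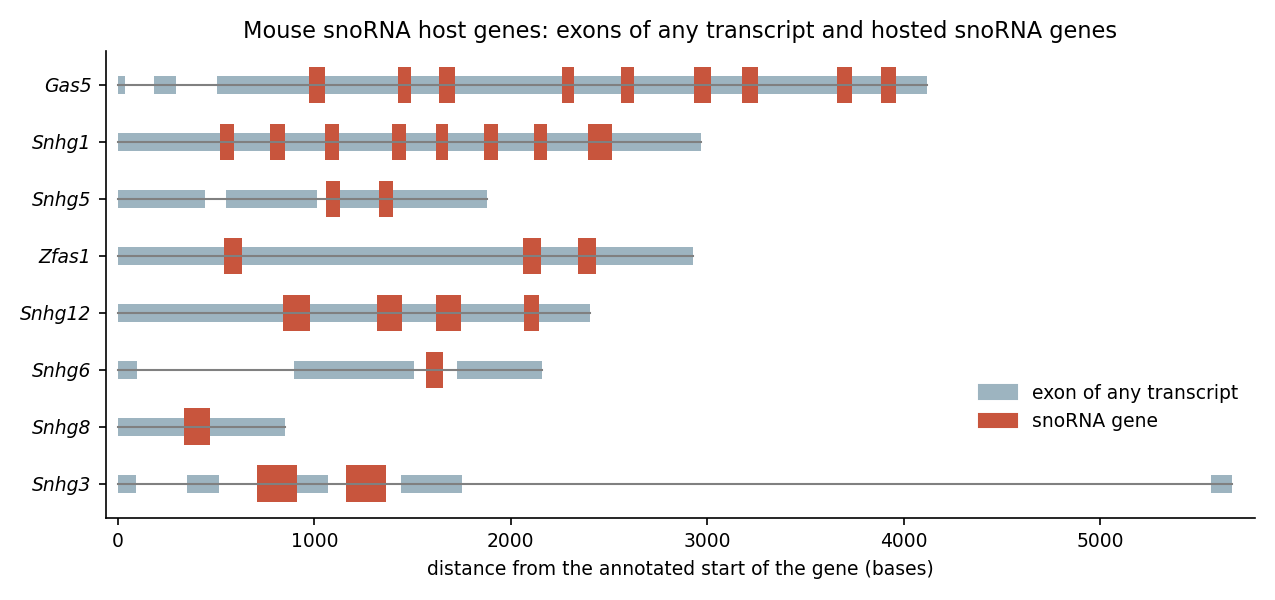
Mouse snoRNA host genes drawn to scale from their annotated starts, in bases. Blue boxes are exons of any annotated transcript, orange boxes are snoRNA genes on the same strand, and every one of the 32 snoRNA records drawn had 0 counts in the mESC libraries.

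All 32 mouse snoRNA records inside the host genes, and all 20 human ones, had 0 counts in every library. This was a property of nested genes at large. Of 5941 mouse genes lying wholly inside another gene on the same strand, 5 (0.0842%) reached 10 counts over the 3 Input libraries. Inside a gene of the opposite strand 1617 of 6276 did (25.8%), and without any overlap 10349 of 29481 (35.1%). In human the shares were 1.25%, 15.2% and 26.4%. Reads where same-strand genes overlap were therefore not credited to the inner gene, and the values below are for the parts of the hosts outside their snoRNAs.

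Snhg3, host of the H/ACA snoRNAs Snora73a and Snora73b, could not be measured for the same reason. It lies for 98.6% of its span inside Rcc1, a guanine nucleotide exchange factor gene on the same strand, and had 1, 1 and 0 counts in the mESC Input libraries and 0 in each IP library. Rcc1 itself had 1897, 2311 and 2150 Input counts. SNHG3 lies wholly inside RCC1 and had 0 counts in all 6 K562 libraries. No level of this gene is read from these zeros, and each fit tested 7 of the 8 host genes.

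Gene counts summed to 29007088 to 34752646 in the mESC Input libraries but only 473398 to 592324 in the mESC IP libraries. K562 had 10477119 to 11865285 in Input and 93110 to 111286 in IP. Levels are given as CPM, the gene's counts scaled to the gene counts of its library. A count of 0 allows up to 5.06 to 6.34 CPM in an mESC IP library and 27.0 to 32.2 CPM in a K562 IP library (3 counts, counting error only). Of the stem cell markers, 5 of 6 were above 3 counts in mESC Input (summed 1396 to 1412 CPM), and Sox2, which lies inside Sox2ot, was at 0. The fibroblast markers summed to 65.8 to 69.1 CPM, with Lum at 0. In K562 Input, 4 of 6 erythroid markers were above 3 counts (240 to 245 CPM in sum, HBG2 and HBE1 at 0). The lymphoid genes summed to 106 to 109 CPM, of which PTPRC gave 74.3 and RAG1 31.8 CPM, while MS4A1 was at 0 and CD3E at 0.0867 CPM. The part of feeder or lymphoid RNA in the results was not tested.

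In mESC chromatin the host genes were well measured in Input. Values are given in replicate order. Gas5, which hosts box C/D snoRNAs, had 279, 270 and 277 CPM, the highest of the host genes. Per kilobase of the union of its exons Gas5 was also highest, at 73.2 ± 1.25 CPM (SD, n = 3). Snhg5 (52.0 ± 0.413) and Snhg6 (51.0 ± 0.67) followed and overlapped each other. Snhg1 (38.2 ± 0.38), Zfas1 (30.3 ± 0.1), Snhg12 (26.4 ± 0.884) and Snhg8 (19 ± 0.824) came next, each apart from its neighbour in all 3 libraries. Since reads were credited along whole gene bodies, the whole span is a second fair length. Per kilobase of span Gas5 (66.8) and Snhg5 (47.9) kept their places, while Snhg6 fell to 27.1 and overlapped Snhg12. In these bulk samples, fewer cells and less RNA per cell cannot be told apart.

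The K562 order was GAS5 (11.9 ± 0.583 CPM per kilobase of exon, n = 3), ZFAS1 (10.0 ± 0.374), SNHG1 (8.13 ± 0.698), SNHG6 (6.75 ± 0.137), SNHG12 (5.74 ± 0.032), SNHG5 (2.35 ± 0.191) and SNHG8 (1.13 ± 0.149), each apart from the next. Per kilobase of span SNHG1 (8.13) came before GAS5 (5.67). These human lengths are from GENCODE 44, which is not the release that was counted. Nearly all of SNHG5 (99.3%) also lies inside ENSG00000271793 on its strand in this release, so its level is uncertain.

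The first comparison asked whether the host transcripts were richer or poorer in the m5C-IP than in Input. In mESC all 7 tested host genes fell in IP. Their median log2 IP/Input was -2.36, beside -0.17 for all 20244 genes tested. Over all genes, 42.0% were called lower in IP at an adjusted p under 0.05 (edgeR's quasi-likelihood test, Benjamini-Hochberg), so a lower call by itself was common. These log2 values use TMM scaling, which shifts mESC log2 IP/Input by -1.01 against plain CPM. All 7 were also lower with plain library sizes, where Snhg8 alone was not called (adjusted p = 0.0907 by edgeR). The study speaks of biological replicates and the labels do not say whether libraries came from separate cultures. The p-values rest on the spread between these libraries as edgeR models it, pooled over genes, and not on the spread of each gene alone.

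Gas5 had 167, 116 and 115 CPM in the mESC IP libraries, on 79, 68 and 68 counts. All 3 lay below the lowest Input library, at 270 CPM, and its log2 IP/Input was -2.05 ± 0.11 (SE; edgeR adjusted p = 1.35e-10). Snhg1, which hosts box C/D snoRNAs, had 112, 113 and 114 CPM in Input and 38.0, 25.5 and 23.6 CPM in IP. The groups did not overlap, and its log2 IP/Input was -2.97 ± 0.19 (edgeR adjusted p = 5.87e-10).

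Zfas1, host of the Snord12 family, had 88.6, 88.4 and 89.0 CPM in Input and 19, 28.9 and 32.1 CPM in IP. Its groups stood apart, with a log2 IP/Input of -2.68 ± 0.19 (edgeR adjusted p = 3.21e-09). Snhg5, host of Snord50a and Snord50b, had 90.3, 90.6 and 89.2 CPM in Input and 42.2, 47.6 and 18.6 CPM in IP. The third IP library was low, but all 3 lay under Input, at a log2 IP/Input of -2.31 ± 0.20 (edgeR adjusted p = 3.47e-08).

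Snhg6, host of Snord87, had 58.0, 58.0 and 59.4 CPM in Input against 23.2, 10.2 and 10.1 CPM in IP. It gave the lowest log2 IP/Input of the 7, -3.04 ± 0.27 (edgeR adjusted p = 2.96e-08). Snhg12, with its H/ACA snoRNAs, had 61.6, 65.7 and 62.7 CPM in Input and 10.6, 32.3 and 27.0 CPM in IP. The groups of both genes were apart, and Snhg12 had a log2 IP/Input of -2.36 ± 0.24 (edgeR adjusted p = 1.66e-07).

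Snhg8, host of Snora24, was the exception in spread. It had 15.5, 16.2 and 16.9 CPM in Input and 2.11, 5.10 and 16.9 CPM in IP, on 1, 3 and 10 counts. The third IP library reached the Input level, so the groups overlapped, while the log2 IP/Input was -1.91 ± 0.42 (edgeR adjusted p = 0.000488). Without that library it was -3.04. Summed over the 8 host genes, mESC Input held 705, 702 and 708 CPM and IP 302, 265 and 243 CPM.

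**Figure D2:**
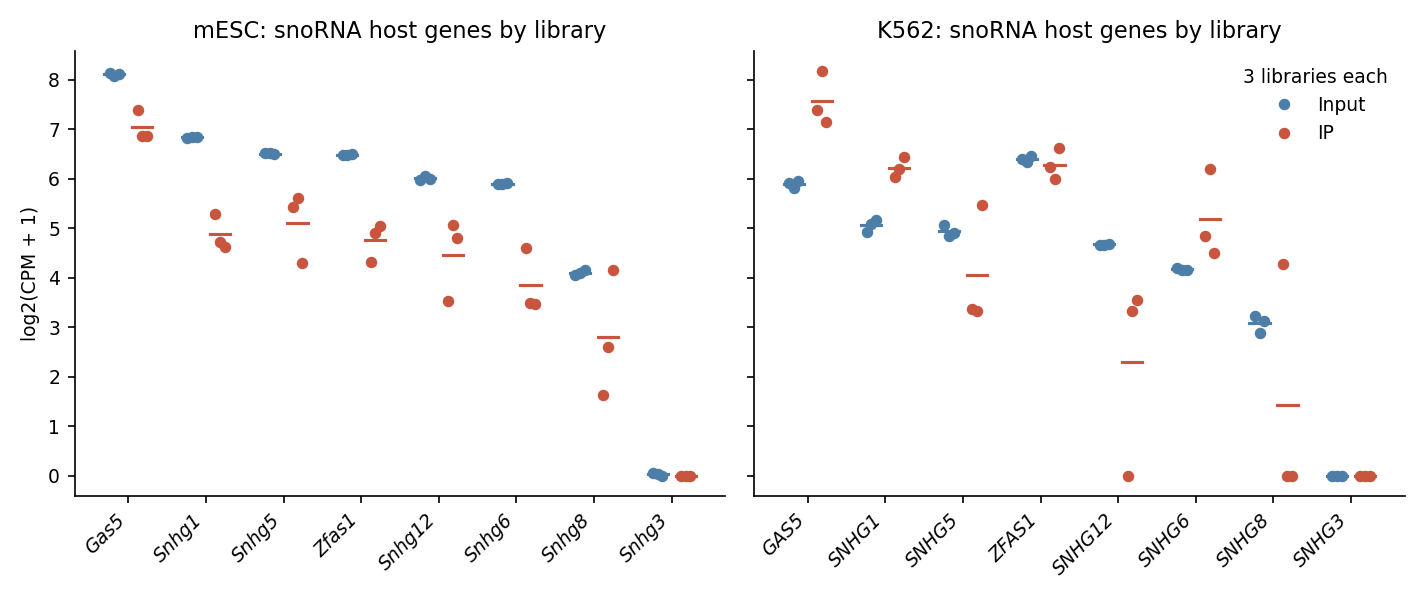
Level of each snoRNA host gene in every library, as log2(CPM + 1), in mESC (left) and K562 (right), with 3 Input (blue) and 3 IP (orange) libraries per gene and a bar at their mean. In mESC the IP points lie under the Input points for 6 genes, with Snhg8 overlapping, and in K562 they lie above Input for GAS5, SNHG1 and SNHG6, and Snhg3 and SNHG3 are near or at 0.

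In K562 the host genes split. GAS5 and SNHG1 rose in IP, SNHG12 fell, and SNHG5, SNHG6, SNHG8 and ZFAS1 did not pass the test. Thus 2 of 7 tested were called higher, beside 15.1% of 14522 genes, and 1 lower, beside 16.4%. The median log2 IP/Input was -0.32, beside -0.16 over all genes tested. The 8 genes together held 254, 244 and 261 CPM in Input and 361, 512 and 397 CPM in IP. As shares of gene counts, all IP libraries thus lay above Input, and GAS5 made up much of the IP sum. Shares of all records, with those not credited to a gene, were not computed. TMM scaling shifts K562 log2 values by -0.27 against plain CPM.

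GAS5 had 59.0, 55.4 and 61.1 CPM in Input and 167, 288 and 140 CPM in IP, on 18, 32 and 13 counts. Every IP library was above every Input library, and its log2 IP/Input was 1.58 ± 0.22 (edgeR adjusted p = 2.95e-10). SNHG1 had 29.4, 32.7 and 34.9 CPM in Input and 64.9, 71.9 and 85.9 CPM in IP, on 7, 8 and 8 counts. Its groups were apart as well, at 0.98 ± 0.35 (edgeR adjusted p = 0.0188), but the call was lost without the second IP library, without the third, and without a filter on low counts (0.64, edgeR adjusted p = 0.163).

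SNHG6 had 17.4, 16.9 and 16.8 CPM in Input and 27.8, 71.9 and 21.5 CPM in IP, on 3, 8 and 2 counts. The IP libraries lay above Input, led by the second, and the log2 IP/Input of 1.08 ± 0.48 missed the threshold (edgeR adjusted p = 0.0739). It was called with plain library sizes, DESeq2, without the third IP library and, just under the threshold, RLE scaling. Without the second IP library it was 0.32 (edgeR adjusted p = 0.779) and without a filter 0.73 (edgeR adjusted p = 0.256).

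SNHG12 went the other way, with 24.4, 24.4 and 24.6 CPM in Input and 0, 8.99 and 10.7 CPM in IP. These IP values rest on 2 counts in all, and Input over IP was 3.82, with an exact 95% counting interval from 1.05 to 31.6. The log2 IP/Input was -2.14 ± 0.80 (edgeR adjusted p = 0.0288), and the call was lost with plain library sizes, with DESeq2, and without the first or the second IP library.

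ZFAS1 had 82.8, 80.3 and 86.5 CPM in Input and 74.1, 62.9 and 96.7 CPM in IP, which overlapped (log2 IP/Input -0.32 ± 0.28, edgeR adjusted p = 0.418). SNHG5 had 32.3, 27.6 and 29.1 CPM in Input and 9.26, 8.99 and 43.0 CPM in IP, with 1, 1 and 4 counts (-0.83 ± 0.55, edgeR adjusted p = 0.26). SNHG8 had 8.34, 6.42 and 7.73 CPM in Input and 18.5, 0 and 0 CPM in IP. Its 2 IP counts gave an IP over Input of 0.854, with an exact counting interval from 0.103 to 3.12, so no difference was detectable at this depth.

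The second comparison asked whether IP/Input of a host gene differed between the lines. It used the interaction of line and library kind over all 12 libraries, on 14241 genes that share a symbol. Of the 7 tested, 4 were called higher in K562 than in mESC and none lower, beside 16.5% of all genes called higher. Differences come from this joint fit, with its own scaling and gene set, and need not equal the gap between the values fitted in each line. Gas5 differed by 3.00 ± 0.33 on the log2 scale (SE; edgeR adjusted p = 2.8e-08). Snhg1 differed by 3.32 ± 0.52 (edgeR adjusted p = 9.37e-06) and Snhg6 by 3.49 ± 0.70 (edgeR adjusted p = 0.000259), which was 2.72 without the second K562 IP library (edgeR adjusted p = 0.0467). For Zfas1 the difference was 1.72 ± 0.45 (edgeR adjusted p = 0.0037).

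The other host genes did not pass this test, with 0.84 ± 0.86 for Snhg5, 0.84 ± 1.47 for Snhg8 and -0.41 ± 1.20 for Snhg12. Their errors are wide because the K562 IP libraries held 6, 2 and 2 counts of them. All 4 calls held with plain library sizes and with RLE scaling, which move the median difference over all genes from 0.17 to -0.15 and -0.27. Species, line, gene annotation and library preparation cannot be told apart in this comparison.

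**Figure D3:**
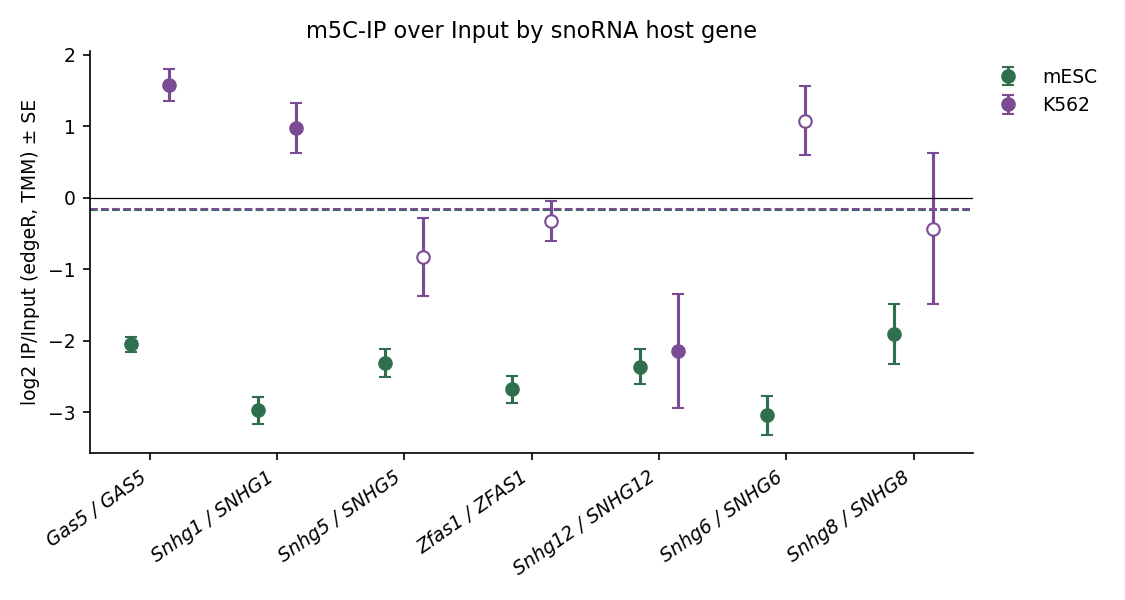
Log2 IP/Input of the 7 tested snoRNA host genes in mESC (green) and K562 (purple), with SE over 3 + 3 libraries; filled points have an adjusted p under 0.05 (edgeR) and dashed lines mark the medians over all genes tested, -0.17 and -0.16. The mESC points all lie between -3.04 and -1.91, and the K562 points run from -2.14 (SNHG12) to 1.58 (GAS5).

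The authors' mESC peak lists held 11146, 15404 and 15797 peaks. None of them overlapped any of the 8 host genes on its strand, and none did on either strand. Of the genes tested, 22.9% held a peak on their strand and 41.2% a peak on either strand. The host genes are short, with a median span of 2402 bases for the 7 tested beside 23825 for all genes tested and 58120 for genes with a peak. The nearest same-strand peak lay 6971 bases from Zfas1 and 7946 from Snhg5, and between 14035 and 158651 bases from the others. No K562 peak list was used here.

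Among other snoRNA host lncRNAs in mESC 1 of 9 tested was called higher and 6 lower, with a median log2 IP/Input of -1.75. Snhg14, the long host of the imprinted Snord115 and Snord116 clusters, rose from 23.1 ± 2.38 to 114 ± 11.4 CPM (SD, n = 3), at a log2 of 1.33 ± 0.18 (edgeR adjusted p = 3.92e-06). Snhg15 fell most among those above 5 CPM, by 3.16 on the log2 scale (edgeR adjusted p = 3.53e-08). In K562 SNHG14 was the 1 of 8 called, higher at 3.05 ± 0.66 (edgeR adjusted p = 5.43e-05), on 10 IP counts in all. SNHG14 had 3.35 CPM in Input and 32.8 CPM in IP, so it passed 5 CPM, a mean over Input and IP, only through IP. SNHG16 stood lowest of the listed genes above 5 CPM at -0.96 (edgeR adjusted p = 0.221). Without a filter on low counts, or with GC offsets, 2 of these were called lower. SNHG10 and SNHG11, at 9.46 and 8.91 CPM in Input, had 0 counts in the K562 IP libraries and so fell below 5 CPM. The median of -0.60 becomes -0.29 with SNHG10 and SNHG11 at the limit of 3 counts over the group.

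Protein-coding genes of the 5'TOP class were compared from a list of 16 translation-related genes and from 15 ribosomal protein genes that host snoRNAs themselves. In mESC all 16 and all 15 were called lower, with medians of -2.18 and -1.97, beside the -2.36 of the host lncRNAs. The median of all genes tested was -0.17, and 42.0% of them were called lower. With plain library sizes 13 of the 15 ribosomal protein genes were called lower, and with Input thinned to IP depth 8 of 13 left to test. In the first list values ran from -3.41 for Eif3f, a subunit of initiation factor eIF3, to -1.55 for Eef1b2, of the elongation factor eEF1B (edgeR adjusted p = 2.94e-07 and 3.91e-07). Among ribosomal protein genes Rpl10 was lowest, at -3.18 (edgeR adjusted p = 1.31e-07).

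In K562 most of these genes rose. All 15 ribosomal protein genes were called higher, at a median of 2.06, and 11 of 14 tested translation genes, at a median of 1.75. Of all genes tested in K562, 15.1% were called higher, and their median was -0.16. EEF1A1, the elongation factor eEF1A, went from 54.7 ± 1.38 to 678 ± 154 CPM (log2 3.40 ± 0.14, edgeR adjusted p = 1.31e-60), and RPL4 from 28.1 ± 1.59 to 273 ± 25.5 CPM (3.07 ± 0.22, edgeR adjusted p = 1.17e-29). The lowest were RPL27A at 1.12 (edgeR adjusted p = 5.53e-05) and EIF3F at -0.52 (edgeR adjusted p = 0.488). GAS5 at 1.58 lay among the ribosomal protein genes, and the median host lncRNA at -0.32 lay below all of them. In the test of the difference between lines, 15 of 15 ribosomal protein genes and 13 of 16 translation genes were called higher in K562. Over all genes the share was 16.5%. Eef1g and Hnrnpa1, among the translation genes not called, were not tested in K562 alone. Their SEs here, 4018.64 and 2662.72, leave no usable difference.

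Genes that act on snoRNAs and host transcripts were lower in mESC too. Among all genes tested, 42.0% were called lower in mESC IP, and the median log2 IP/Input was -0.17. The snoRNP proteins, which bind and assemble snoRNAs, were called lower in 15 of 15 cases (median -1.82), from Naf1, an H/ACA assembly factor, at -3.40 to the methyltransferase Fbl at -0.69 (edgeR adjusted p = 3.67e-10 and 0.00596). Nonsense-mediated decay factors were called lower in 8 of 8 (median -1.67), from the kinase Smg1 at -2.50 to Upf3a at -1.11. Regulators of 5'TOP transcripts were called lower in 7 of 7 (median -1.78), from the RNA-binding protein Cnbp at -2.44 to Mtor at -0.81. With plain library sizes 11, 6 and 5 of these were called lower, Fbl and Mtor turned to 0.32 and 0.19 (edgeR adjusted p = 0.225 and 0.0786), and Upf3a was at -0.11. With Input thinned to IP depth 7 of 13 snoRNP proteins, 3 of 8 decay factors and 3 of 6 regulators left to test were called lower, and 1 regulator was called higher.

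In K562 the medians of the same lists lay closer than in mESC to that of all genes, -0.16. Over all genes 15.1% were called higher and 16.4% lower. Of the snoRNP proteins 2 of 14 were called lower and none higher (median 0.00). NAF1 was lowest at -2.66 ± 0.50 (edgeR adjusted p = 3.23e-06), on 4 IP counts in all. DKC1, the pseudouridine synthase, was highest of the snoRNP proteins above 5 CPM at 0.45 (edgeR adjusted p = 0.172). Of the decay factors 4 of 8 were called lower (median -0.49), with UPF3A highest at 0.03 (edgeR adjusted p = 0.942). Of the regulators 1 of 6 was called higher and 2 lower (median -0.34), with LARP1B at -0.59 and CNBP at 0.57 (edgeR adjusted p = 0.019 and 0.14), and with plain library sizes 2 were called higher and none lower. The decay factors had 2 lower calls with RLE scaling and 1 with plain library sizes.

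**Figure D4:**
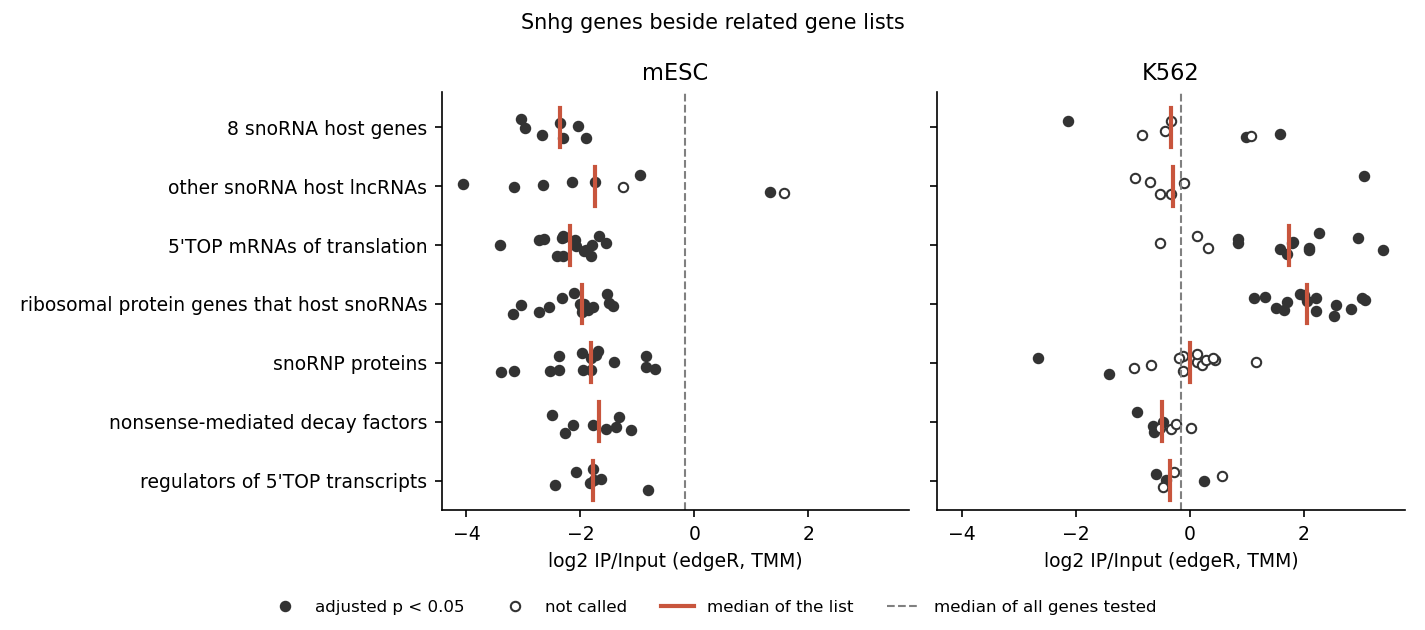
Log2 IP/Input of each tested gene in 7 gene lists, in mESC (left) and K562 (right). Filled points have an adjusted p under 0.05 (edgeR), orange bars are list medians with the genes at 0 IP counts set to the limit of 3 counts (SNHG10 and SNHG11, not drawn), and the dashed line is the median of all genes tested. The lists of ribosomal protein and translation genes lie near -2 in mESC and near 2 in K562, while the medians of the 7 tested host genes are -2.36 and -0.32.

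The genes closest to the mean profile of the host genes, by the Euclidean distance of log2(CPM + 1) over 6 libraries, were Fis1 (0.224), Vps26a (0.241) and Dctn2 (0.310) in mESC. They fell from 73.8, 81.0 and 72.0 CPM in Input to 25.1, 24.0 and 27.1 CPM in IP. In K562 they were EIF1AX (0.374), MRPS30 (0.396) and CCNA2 (0.412), with 29.8, 28.5 and 26.3 CPM in Input and 29, 25.9 and 29 CPM in IP.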

How the data were processed

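The files hold gene-level read counts, not normalized, as the authors deposited them for 12 libraries (3 m5C-IP and 3 Input of mESC and of K562), and a peak list for each mESC IP library. According to the methods of the study and the submitters' processing notes, reads were trimmed (Trimmomatic 0.39) and aligned (HISAT2 2.1.0) to mm10 or hg38, and peaks were called with MACS2 per library and strand. Counting options are not given in the sources used here; the handling of overlapping genes was read from the counts of nested genes. Peak lists carry no score, and spike-ins were not used here.

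Summary lines (19.0% to 71.7% of records) stayed out of library sizes. Fits on the deposited counts used edgeR 4.0.16 under R 4.3.3 (quasi-likelihood, TMM, filterByExpr, Benjamini-Hochberg at 0.05) over all genes, without a replicate block. An SE is the absolute log2 value over the square root of F. On simulated data, only genes with a mean of at least 20 IP counts per library were changed, by 4-fold. Of 200 such genes 200, 200 and 193 were recovered for mESC (20244 genes), K562 (14522 genes) and their difference (14241 genes). Recovery was not simulated for genes with fewer counts, such as SNHG1 in K562, with 7, 8 and 8 IP counts. The common biological coefficient of variation was 0.0583, 0.00988 and 0.0208. Positions came from GENCODE M21 and 44, other releases than those counted; 99.9% of mouse and 99.1% of human identifiers matched.

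All host genes are described. From each other list, the genes with the largest and smallest log2 IP/Input in each line are named. The choice was among those with a mean of at least 5 CPM over Input and IP together, so it depends partly on IP. Some genes that this rule names are not reported here. The host genes and lists were chosen with earlier results of these data known. Alternatives were RLE and plain library sizes, no filter, DESeq2 1.42.0, Input thinned to IP depth, GC offsets, a replicate block and leaving out each library.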

Additional observations from a re-analysis of the deposited data

Results flagged for a closer look

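The interaction test over all 12 libraries found that IP/Input was higher in K562 than in mESC for Snhg6 by 3.49, for Snhg1 by 3.32, for Gas5 by 3.00 and for Zfas1 by 1.72 on the log2 scale (edgeR). The K562 IP libraries held 13, 23, 63 and 24 counts of these genes in all. The Snhg6 difference was 2.72 without K562 IP replicate 2, which held 8 of its 13 IP counts.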

How the results depend on the processing

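The 7 mESC calls held under RLE scaling, GC offsets, DESeq2, no filter on low counts, the replicate block and each left-out library, and 6 of 7 held with plain library sizes and, of 6 left to test, 6 with thinned Input. The mESC median of -2.36 was -2.19 with RLE scaling and with DESeq2, -1.36 with plain library sizes, -2.80 without a filter, -1.29 with Input thinned to IP depth (6 genes left), -2.30 with GC offsets and -2.43 with the replicate block, and -2.80 to -2.35 with a library left out. In K562, thinning left GAS5 alone, called, so that the count of calls was 1 and the median 2.11. With a library left out the K562 count of calls was 1 (without IP replicate 2) to 3 and the median -0.35 to 0.19, being 0.08 without IP replicate 3. SNHG8 turned to 0.19 and 0.08 without K562 IP replicates 2 and 3, and had 0 IP counts without replicate 1, where its fitted -8.68 is no bound.

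In the difference between lines, the 4 calls held except that Zfas1 was lost with thinned Input. Snhg12 turned to 1.26 with thinned Input. With a library left out, Snhg12 ran from -0.90 to 0.20 (without K562 IP replicate 1), Snhg8 from -8.16 (without K562 IP replicate 1, no bound) to 1.98 and Snhg5 from -0.24 (without K562 IP replicate 3) to 1.19. The ratio of the highest to the lowest host gene per length moved from 3.85 to 3.52 (span) and 5.15 (longest transcript) in mESC and from 10.5 to 7.80 and 15.3 in K562. The summed IP to Input ratio in mESC was 0.383 with gene count totals and 0.195 with TMM library sizes.

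Same-numbered Input and IP libraries deviated together with r of 0.00486 to 0.0124. With so few IP counts, an r this low cannot tell whether the numbers pair the libraries. With the replicate block, SNHG12 lost its K562 call. In that fit 15434 of 20244 mESC and 3940 of 14522 K562 genes were called, beside 16590 and 4576. Every mESC IP library correlated best with its own number and K562 libraries did so in 2 of 3 cases. Over all genes, thinning left 6149 mESC, 512 K562 and 1827 difference calls (4407 without thinning), and K562 had 8237 without a filter. Among calls, 67.9% in mESC and 70.2% in K562 were higher with plain library sizes, beside 48.7% and 47.9%. In the difference the share was 35.3% with RLE scaling, 39.9% with plain sizes and 32.8% with GC offsets, beside 53.2%, and in K562 it was 64.8% with DESeq2. The depth of the K562 IP libraries limits every K562 value on fewer than 10 counts.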
